A study of Homo sapiens with 14 samples.

Results

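The regions described here are the 14497 stretches of promoter DNA at which the BAF chromatin remodelling complex was found in both naïve and primed human embryonic stem cells (hESCs). They were chosen from the deposited ChIP-seq peak lists of 2 BAF subunits. BRG1 (SMARCA4) is an ATPase of the complex and BAF155 (SMARCC1) is one of its scaffold proteins. Within each state the BRG1 and BAF155 peaks were merged into BAF regions. A naïve and a primed region that overlapped by at least 25% of either one were joined into a common region, and a common region counted as a promoter region when its midpoint lay within 1 kb of a GENCODE transcript start. This gave 14497 of 106393 BAF regions (13.6%) and 14497 of 27753 common regions (52.2%, 95% interval 51.6 to 52.8%). Because BRG1 and BAF155 peaks chose the regions, their values are given as a description only. The comparisons rest on the peak lists of BRM (SMARCA2, the paralogous ATPase) and of SOX2, and on the genome sequence, none of which the selection used.

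All libraries came from WIBR3, an established hESC line, with no genetic change named in the labels, grown on mouse embryonic fibroblast feeder cells. Naïve cells were held in 5i/L/A medium and primed cells in conventional hESC medium with FGF2. Each of BRG1, BAF155 and BRM was measured in 1 library per state, so differences between states have no replicate check. SOX2 had 2 deposited lists per state with identical coordinates, which were counted as 1 sample. All intervals are therefore 95% intervals for counting error in these libraries, not for the spread between cultures. On chromosomes 1 to 22 and X there were 57853 BRG1, 62338 BAF155, 17413 BRM and 1940 SOX2 peaks in naïve cells. In primed cells the numbers were 15611 for BRG1, 58352 for BAF155, 167 for BRM and 9290 for SOX2. The lists are of unequal length. The peak files hold no read counts, so no depth is given beside the values, and by the study's sequencing metrics the primed BRG1 library, whose list is short, held more usable reads than either naïve BRG1 or naïve BAF155.

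BAF is an ATP-driven machine that slides and evicts nucleosomes, and one complex carries either BRG1 or BRM as its motor. At promoters it keeps DNA open for the transcription machinery, and it is also recruited by sequence-specific repressors. One of these is REST, which holds neuronal genes silent in cells that are not neurons by binding a long bipartite element, RE1. SOX2 and OCT4 (POU5F1) bind next to each other on a composite element at many pluripotency enhancers.

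Sequences from named regions are shown here, all read from hg38 in the 5′ to 3′ direction. The first set comes from the regions of highest BAF fold and shows an RE1 match in capitals. The match was defined as TCAGCACC, any 2 bases, then GGACAG, with up to 2 mismatches on either strand, and these 3 have none. The CHGA sequence lies at chr14:92923494-92923569 on the plus strand, in an intron 168 bp downstream of the start. The HHATL sequence lies at chr3:42701589-42701664 on the minus strand, at -105 bp from the nearest start and in an intron of longer transcripts. The NMS sequence lies at chr2:100471066-100471141 on the minus strand, in an intron 621 bp downstream of the start.
CHGA: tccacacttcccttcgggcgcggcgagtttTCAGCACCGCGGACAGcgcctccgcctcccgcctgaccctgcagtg
HHATL: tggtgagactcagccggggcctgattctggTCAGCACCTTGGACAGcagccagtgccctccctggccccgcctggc
NMS: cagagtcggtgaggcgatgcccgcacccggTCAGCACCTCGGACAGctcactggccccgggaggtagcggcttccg

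The second set comes from SOX2 summits in the regions, 100 bp each. Of the 9 named summits read, 2 held a composite by the rule below and 2 a SOX core with no such composite. The other 5 (at REST, TCF7L1, CACHD1, MED12 and WNT3) held neither, and 3 summits with a match are shown. Capitals mark a match to TTGT, any base, then ATGCAAA, with up to 1 mismatch, which is the OCT4-SOX2 composite, or a SOX core (CATTGT or CTTTGT) where there is none. The SMARCA2 sequence (chr9:2018922-2019021, plus strand) lies in an intron 1884 bp downstream of the start and matches the composite without a mismatch. The AFAP1 sequence (chr4:7861528-7861627, minus strand) lies in an intron 734 bp downstream of the start and has 1 mismatch. The POU5F1 sequence (chr6:31173079-31173178, plus strand) lies at -2446 bp from the nearest start, within the intron of a longer transcript, and holds a SOX core. This core and the bases after it resemble the composite but have more than the 1 mismatch allowed.
SMARCA2: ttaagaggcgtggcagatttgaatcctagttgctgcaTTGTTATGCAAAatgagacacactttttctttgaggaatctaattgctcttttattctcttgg
AFAP1: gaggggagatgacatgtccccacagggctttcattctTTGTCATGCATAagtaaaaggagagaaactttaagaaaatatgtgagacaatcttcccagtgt
POU5F1: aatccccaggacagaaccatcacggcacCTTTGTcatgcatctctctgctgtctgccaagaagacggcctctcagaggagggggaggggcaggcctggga

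Common promoter regions were wide, rich in GC and centred on the start. Their median width was 1414 bp (quartiles 955 and 2041), against 805 bp for common regions away from promoters, 464 bp for naïve-only and 470 bp for primed-only promoter regions. A common region spans the joined naïve and primed regions, whereas a state-specific region comes from a single state. Part of the width difference from state-specific promoters therefore follows from the rule. GC content, taken over the central 200 bp of each region, had a median of 68%, against 49.5%, 54.5% and 53.5% in the same order. A CpG observed to expected ratio of at least 0.6, a usual mark of CpG islands, was reached by 74.5% of the regions (73.8 to 75.2%). The same ratio was reached by 15.1% of common regions away from promoters, 28.9% of naïve-only and 30.4% of primed-only promoter regions. Midpoints lay a median of 22 bp downstream of the nearest start, and 60.6% were within 200 bp of it (59.8 to 61.4%). That share was 38.8% for naïve-only and 48.4% for primed-only promoter regions. A start lay inside 13644 of the 14497 regions (94.1%). A further 242 common regions (1.83%) covered a start but had their midpoint over 1 kb away, with a median width of 3741 bp, and are not counted here. Just inside the limit were regions at ITGB1-DT and at ENSG00000289482, both at 1000 bp. Just outside were regions at LINC01574 (1001 bp) and LMNTD2 (1002 bp), and BAF folds of these 4 lay between 2.55 and 5.18. The widest regions were at BCOR (20090 bp, chromosome X, 40089981 to 40110070), a Polycomb corepressor gene, TNRC18 (12646 bp) and MEIS2 (9055 bp), a homeobox gene.

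**Figure D1:**
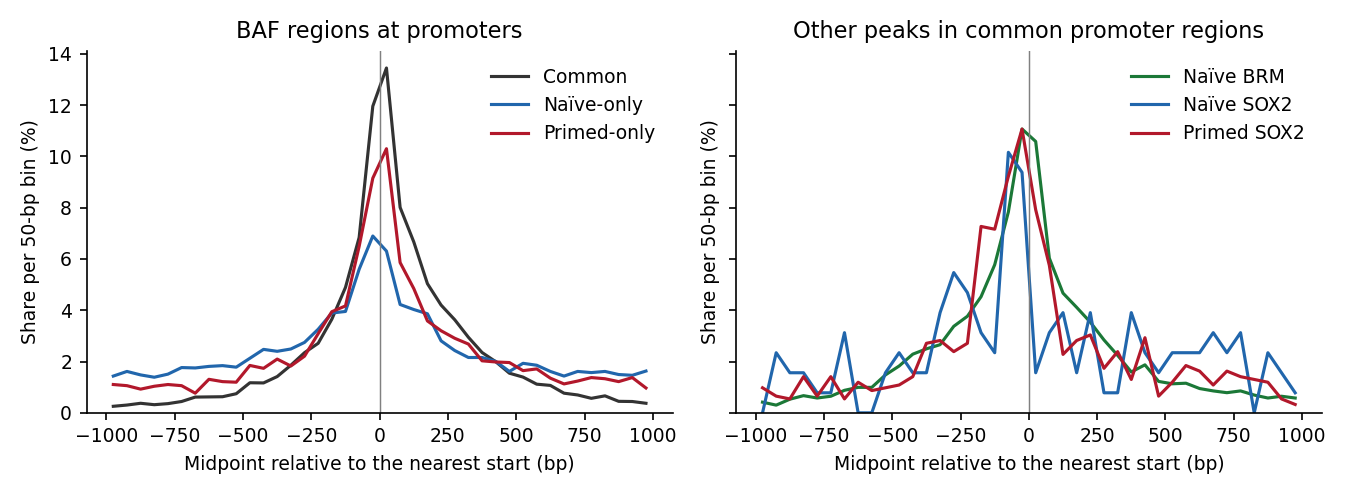
Midpoints relative to the nearest transcript start (bp, positive downstream), as the share of midpoints per 50-bp bin. Left, common (14497), naïve-only (6629) and primed-only (4438) BAF regions at promoters. Right, peaks of the BRM and SOX2 lists that lie in the common promoter regions, of which 50.6% (naïve BRM), 44.7% (primed SOX2) and 26.4% (naïve SOX2) fall within 200 bp of a start.

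The nearest start belonged to a protein-coding gene for 82.6% of the regions and to a long non-coding RNA for 14.3%. A protein-coding start within 1 kb was found for 88.5% (88.0 to 89.0%), against 62.0% of naïve-only and 69.6% of primed-only promoter regions. Protein-coding starts on both strands, as at bidirectional promoters, were found within 1 kb of 1296 regions (8.94%, 8.48 to 9.42%), against 2.08% of naïve-only and 5.41% of primed-only promoter regions. Starts of non-coding genes were not counted here. Each share is of all regions of its class, including those with no protein-coding start.

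The regions differed mainly in whether the short primed BRG1 list marked them. Peaks of all 4 lists were present in 6157 regions (42.5%), and all but primed BRG1 in 5864 (40.4%). A further 962 rested on BAF155 alone in both states and 895 on naïve BRG1 with primed BAF155. The median fold over input was 2.94 for naïve BRG1, 2.89 for naïve BAF155, 3.48 for primed BRG1 and 3.35 for primed BAF155. In common regions away from promoters it was slightly higher in each list, at 3.04, 2.99, 3.74 and 3.51. Over the regions, the folds of BRG1 and BAF155 had a rank correlation of 0.67 within the naïve state (12028 regions) and 0.54 within the primed state (6760 regions). Between states the rank correlation was 0.25 for BAF155 (13242 regions) and 0.26 for BRG1 (6512 regions). Libraries of one state share an input control, and regions share libraries, so these correlations are descriptive.

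At the deposited peak threshold most protein-coding genes had such a region. Of 19970 protein-coding genes 12612 had a common BAF region at a start (63.2%). Another 1231 had a naïve-only region alone, 1285 a primed-only region alone, 382 both kinds and 4460 (22.3%) none by this rule. Of those 4460 genes 107 had a start inside a wide common region whose midpoint lay elsewhere. The share was lowest on chromosome X (40.4%, 347 of 859 genes, interval 37.1 to 43.8%) and highest on chromosome 18 (74.4%, 198 of 266, interval 68.8 to 79.6%). The count of 12612 genes depended on the peaks used. It was 3805 with a −log10 q-value of at least 3 and 402 with a fold of at least 4. From BRG1 peaks alone it was 5779, and from BAF155 peaks alone 11609.

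Gene lists were read against this background of 63.2%. All 30 BAF subunit genes had a common region (100%, interval 88.4 to 100%), among them SMARCA4, SMARCA2, ARID1A, SMARCC1, SMARCB1 and PBRM1. Complex I of the respiratory chain (30 of 37, 81.1%) and mitochondrial ribosomal proteins (61 of 78, 78.2%) had shares above the background with intervals that exclude it. Mediator (21 of 30), replication licensing factors (10 of 14), cytosolic aminoacyl-tRNA synthetases (14 of 20), germ layer regulators (12 of 18) and zinc fingers (310 of 508) had intervals that include it.

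For other lists the class of region is given too. Over all protein-coding genes 6.43% had a primed-only and 6.16% a naïve-only region in place of a common one. Of the 77 cytosolic ribosomal protein genes 41 had a common region (53.2%, interval 41.5 to 64.7%, which includes the background), and 19 had a primed-only region in its place, against 5 with a naïve-only one. Of the proteasome genes 18 of 39 had a common region (46.2%, interval 30.1 to 62.8%, below the background), 13 a primed-only and 3 a naïve-only one. HOX genes had a common region in 21 of 39 (53.8%, interval 37.2 to 69.9%, which includes the background) and had 9 naïve-only and 3 primed-only regions in place of common ones. Families of sensory and skin genes had few common regions. Of 415 olfactory receptors 2 had a common region (0.482%), and of 94 keratin-associated proteins 0 did, which allows a share of up to 3.85%. The 4 keratin genes of 55 with a common region were KRT8, KRT18, KRT19 and KRT86, of which KRT8 and KRT18 are the pair that simple epithelia and the early embryo use, and all 4 held a naïve BRM peak.

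**Figure D2:**
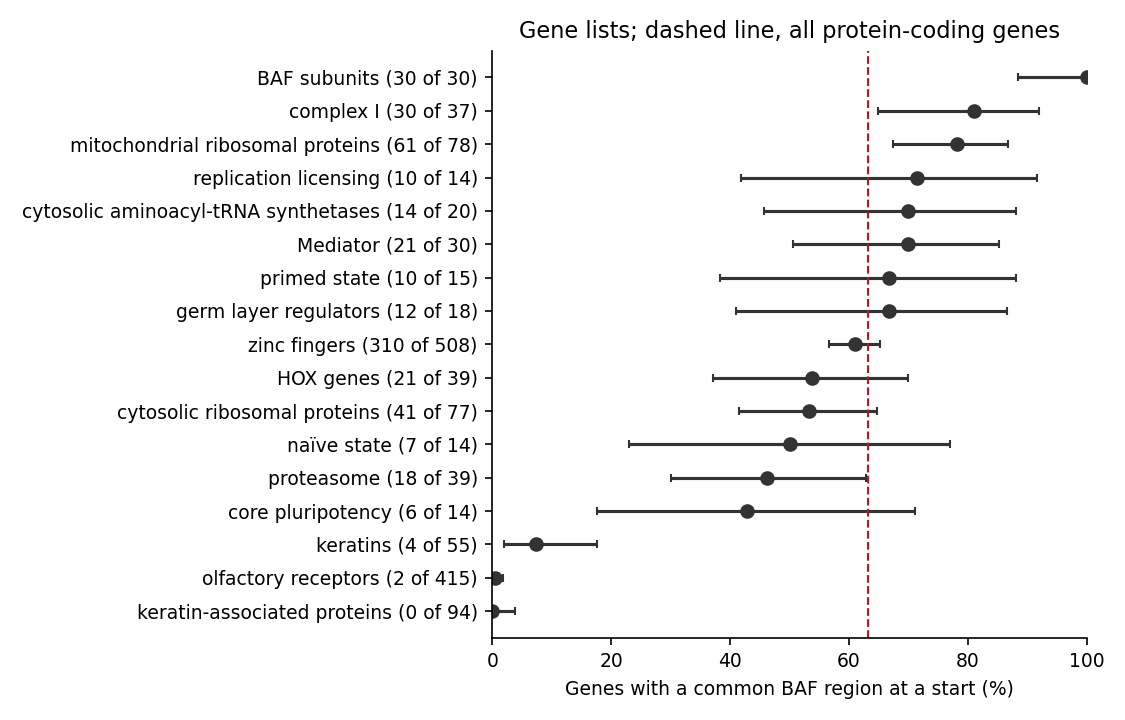
Share of the genes of each list with a common BAF region at a start (%), with exact 95% intervals for counting error; the dashed line is the 63.2% of all protein-coding genes. BAF subunits lie at 100%, olfactory receptors, keratins and keratin-associated proteins lie under 8%, and the 53.2% of cytosolic ribosomal proteins and 46.2% of proteasome genes lie below the line.

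Regions were ranked by the lowest of their 4 folds, so that a high rank needs a strong peak in every list. The region at PRB2, a salivary proline-rich protein gene, was first, with folds of 7.61 and 9.65 for naïve BRG1 and BAF155 and 10.1 and 10.2 for primed BRG1 and BAF155 (chromosome 12, 11500426 to 11501177). At CHGA, chromogranin A of secretory granules, the folds were 7.502 and 6.89 for naïve and 6.24 and 6.17 for primed BRG1 and BAF155. At HHATL, a relative of the hedgehog acyltransferase gene, they were 6.33 and 7.86 in naïve and 8.36 and 10.1 in primed cells. At these 3 regions every fold was above the median of its list, which follows from the ranking itself. CACNG2 (lowest fold 7.23) encodes a regulator of AMPA receptors, NMS (6.33) the neuropeptide neuromedin S, P2RX6 (6.11) a purine receptor and PEX5L (6.10) a neuronal relative of the peroxisome import receptor. The other 3 of the 10 were ENSG00000270299 (7.49), LSP1 (6.75), a leukocyte actin-binding protein gene, and RAB37 (6.26). Each of the 10 held a naïve BRM peak, with folds from 5.28 (LSP1) to 9.41 (ENSG00000270299), and none held a SOX2 peak of either state. Only regions with a protein-coding start within 1 kb were named.

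RE1 was searched after these names had been seen. A match lay inside 6 of the 10 regions, at PRB2, HHATL, NMS, RAB37, CHGA and P2RX6, with no mismatch at HHATL, NMS and CHGA. Over the 6157 regions with all 4 peaks, a match within the 200 bp at the midpoint was present in 70 of the 616 regions of the highest of 10 equal groups by lowest fold (11.4%, interval 8.97 to 14.1%). In the next group it was 6 of 616 (0.974%), and in the other groups between 0.163% and 0.649%. Counted over the whole width, 34.4% of the highest group had a match and 2.11 to 6.66% of the others. The groups were formed from the BRG1 and BAF155 folds, and the highest includes the 10 regions that prompted the search. These shares are therefore a description and not an independent test.

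The 141 regions with a match at the midpoint were 0.973% of all common promoter regions (0.819 to 1.15%). The share was 1.69% at naïve-only promoters, 0.293% at primed-only promoters and 6.28% in common regions away from promoters. The odds of a match were thus 0.147 times those of common regions away from promoters (0.122 to 0.176) and 3.34 times those of primed-only promoters (1.89 to 5.91). With at most 1 mismatch the latter was 11.7 (2.87 to 47.6). Against naïve-only promoters the odds ratio was 0.571 (0.445 to 0.734), 0.847 (0.579 to 1.24) with at most 1 mismatch and 1.498 (0.762 to 2.94) with none, so its direction depended on the mismatches allowed. In the 300 bp around the starts of all 19970 protein-coding genes, 0.541% had a match. At the 141 regions the median fold was 4.01 for naïve BRG1, 4.21 for naïve BAF155, 4.87 for primed BRG1 and 4.76 for primed BAF155, compared with 2.94, 2.89, 3.47 and 3.35 at the others.

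**Figure D3:**
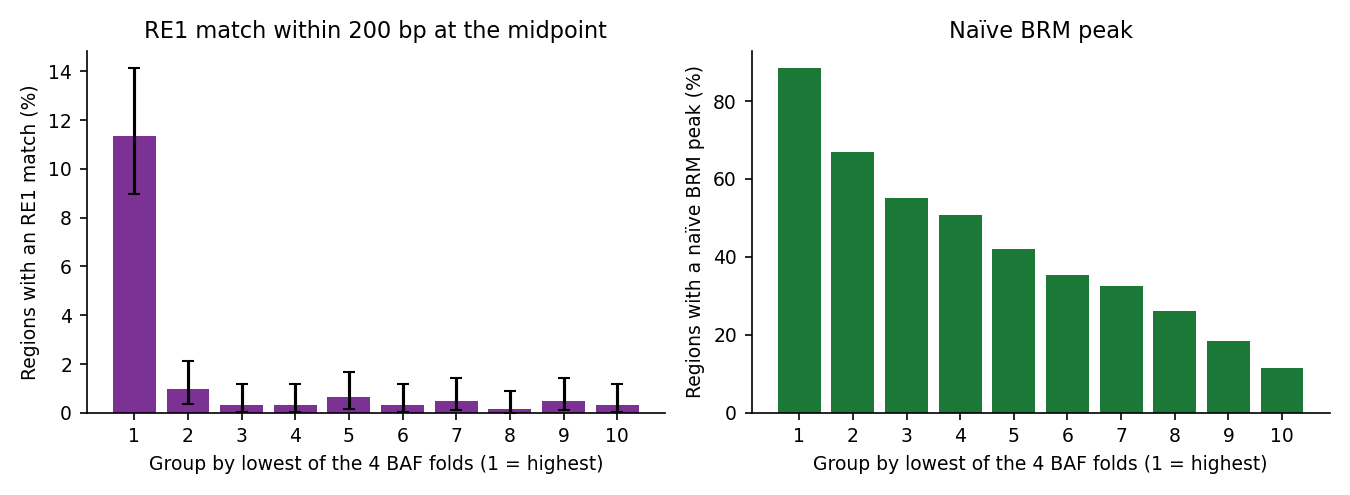
The 6157 common promoter regions with a peak in all 4 BAF lists, in 10 equal groups by the lowest of their 4 folds over input (group 1 the highest). Left, share with an RE1 match within 200 bp at the midpoint (%, exact 95% intervals), 11.4% in group 1 and under 1% in every other group. Right, share with a naïve BRM peak (%), falling from 88.5% to 11.5%. The groups were formed from the BRG1 and BAF155 folds, so both panels are descriptive.

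BRM, the alternative motor, has a long naïve and a very short primed list. A naïve BRM peak lay in 4348 common promoter regions (30.0%, 29.2 to 30.7%). That was a lower share than in common regions away from promoters (34.2%, odds ratio 0.825, 0.784 to 0.867) and a higher one than at naïve-only promoters (14.2%, odds ratio 2.59, 2.40 to 2.80). Region width moved with both differences. Within width classes the odds ratio against regions away from promoters was 0.594 (0.561 to 0.629), whereas that against naïve-only promoters was 1.05 (0.954 to 1.15). With all regions set to 500 bp, BRM was still more frequent than at naïve-only promoters (18.7% against 12.2%, log2 odds ratio 0.73, 0.60 to 0.85), so the latter difference depended on how width was handled. With only BRG1 and BAF155 peaks of fold 4 or more, 91.8% of common promoter regions and 87.1% of common regions away from promoters held a BRM peak, and the first difference turned its direction.

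The share with a BRM peak was 88.5% in the highest of the 10 groups by BAF fold and 11.5% in the lowest, and the BRM fold had a rank correlation of 0.61 with the naïve BRG1 fold (4290 regions). BRM, BRG1 and BAF155 in naïve cells were called against the same input library, whose part in this was not tested. Regions with BRM were wider (median 1755 against 1290 bp) and had the same median GC content (68%). As a description, since the BAF lists chose the regions, BRM was present in 42.7% of those with all 4 BAF peaks (median width 1778 bp) and in 27.5% of those lacking only primed BRG1 (1313 bp).

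BRM also differed with the kind of promoter. At promoters with protein-coding starts on both strands 21.9% of regions held a BRM peak, against 30.6% at those with protein-coding starts on one strand (odds ratio 0.637, 0.555 to 0.731). Starts on both strands were also less frequent in the highest group by BAF fold (3.90%) than in the lowest (13.5%). BRM peaks had the opposite order (88.5% and 11.5%). The part of BAF fold in the difference between both-strand and one-strand promoters was not tested. Among genes with a common region 31.3% had BRM there. Among the lists, BRM was present at 4 of 41 for cytosolic ribosomal proteins (RPL7, RPL7A, RPL10 and RPL26), 4 of 30 for complex I, 11 of 61 for mitochondrial ribosomal proteins and 3 of 21 for HOX genes. It was present at 1 of 10 replication licensing, 2 of 14 aminoacyl-tRNA synthetase, 2 of 12 germ layer and 5 of 21 Mediator genes, also below the background share. Close to that share were 5 of 18 proteasome, 87 of 310 zinc finger, 9 of 30 BAF subunit and 3 of 10 primed state genes. Above it were 5 of 6 core pluripotency, 3 of 7 naïve state and 4 of 4 keratin genes, and 1 of 2 olfactory receptors. No intervals were computed for these shares, and many of the lists are small. An RE1 match went with BRM, which was present at 104 of the 141 regions with a match (73.8%, 65.7 to 80.8%) and at 29.6% of the others (odds ratio 6.70, 4.59 to 9.76). Within width classes the odds ratio was 9.97 (6.82 to 14.6). RE1 matches and BRM peaks were both most frequent in the highest group by BAF fold (11.4% and 88.5%). The part of BAF fold in this association was not tested. The 5 highest BRM folds among regions with a named protein-coding start were at ENSG00000270299 (9.41), SNAP25 (8.13), a synaptic SNARE gene, SLC12A5 (7.98), the neuronal chloride exporter gene, P2RX6 (7.88) and ZP3 (7.87), a gene of the egg coat. Of these, SNAP25, SLC12A5 and P2RX6 had an RE1 match in the region.

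**Figure D4:**
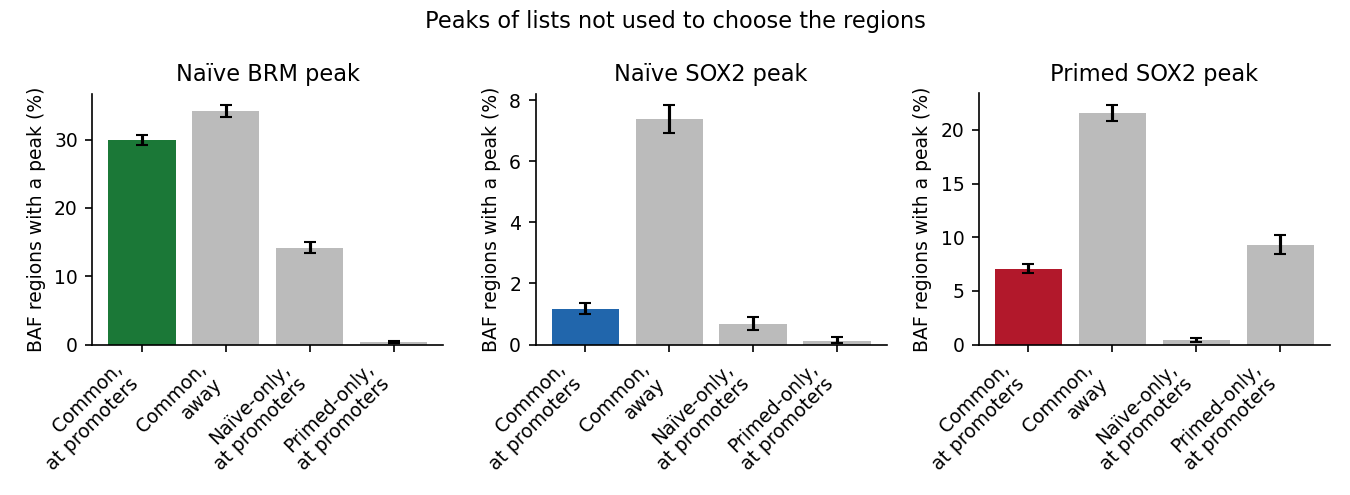
Share of BAF regions that hold a naïve BRM, naïve SOX2 or primed SOX2 peak (%), by class, with exact 95% intervals for counting error. Common promoter regions (coloured, n = 14497) lie below common regions away from promoters (n = 13256) in all 3 panels, and the gap is widest for SOX2 (1.17% against 7.37% naïve, 7.07% against 21.6% primed).

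SOX2 was scarce at these promoters. A primed SOX2 peak lay in 1025 regions (7.07%) and a naïve one in 169 (1.17%), whereas common regions away from promoters held 21.6% and 7.37%. The odds ratios were 0.277 (0.256 to 0.298) for primed and 0.148 (0.126 to 0.175) for naïve SOX2, and within width classes they were lower, at 0.174 and 0.0955. Against promoters of the same state, primed SOX2 was also less frequent than at primed-only promoters (9.31%, odds ratio 0.741, 0.658 to 0.836). Naïve SOX2 was more frequent than at naïve-only promoters (0.664%, odds ratio 1.77, 1.27 to 2.46), but within width classes that comparison turned to 0.645 (0.438 to 0.948), and with all regions set to 500 bp the shares were 0.504% and 0.498%.

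The SOX2 share was higher farther from the start, apart from 2 to 5 kb, where primed SOX2 was 16.8% after 19.9% and naïve SOX2 was 6.07% after 6.14%. For primed SOX2 it was 5.32% of regions with a midpoint within 200 bp, 12.8% at 500 to 800 bp, 16.4% at 800 bp to 1 kb and 26.7% beyond 20 kb. For naïve SOX2 the values at the same distances were 0.569%, 3.46%, 3.93% and 9.33%. Naïve BRM was 27.0% within 200 bp, 38.2% at 500 to 800 bp and 33.5% beyond 20 kb. Regions just beyond the 1 kb limit, at 1 to 1.2 kb, held 19.03% primed SOX2, 6.04% naïve SOX2 and 38.1% BRM, with intervals that overlap those just inside.

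**Figure D5:**
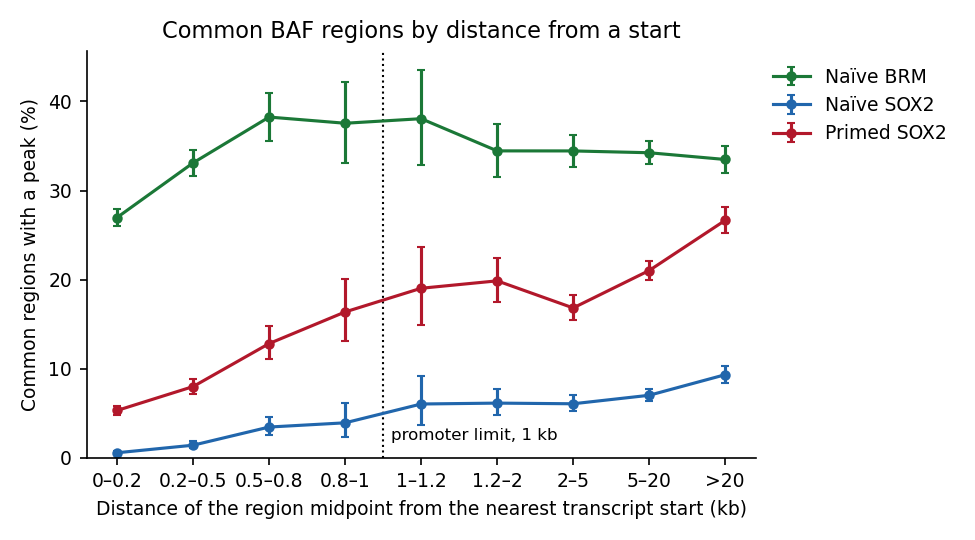
Share of common BAF regions with a peak (%) by distance of the midpoint from the nearest transcript start (kb), with exact 95% intervals. The dotted line is the 1 kb promoter limit. Primed SOX2 rises from 5.32% next to the start to 26.7% beyond 20 kb, naïve SOX2 from 0.569% to 9.33%, and naïve BRM stays between 27.0% and 38.2%.

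Sequence composition differed between regions with and without SOX2. Those with a primed SOX2 peak had a median GC content of 58% against 68.5% without, and those with a naïve SOX2 peak had 48.5%. They were also wider, with medians of 1981 and 2069 bp, and the part of GC content and width in the SOX2 differences between classes was tested for width alone. The SOX core lay in the 200 bp at the midpoint of 25.8% of regions with a primed SOX2 peak and of 9.78% without (odds ratio 3.20, 2.75 to 3.72). At the SOX2 summits themselves, the share with a core within the surrounding 100 bp differed by less than its counting interval, at 40.6% of 1103 primed peaks (37.7 to 43.6%) against 39.8% in common regions away from promoters, and at 43.1% of 174 naïve peaks (35.6 to 50.8%) against 42.1%. The composite OCT4-SOX2 element was less frequent at primed summits in promoters, in 47 of 1103 (4.26%, 3.15 to 5.63%) against 10.5% away from them (9.39 to 11.6%). At naïve summits it was present in 25 of 174 (14.4%, 9.52 to 20.5%) against 15.5%.

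Of the 169 regions with naïve SOX2 127 also held primed SOX2. These make up 75.1% of the regions with naïve SOX2 and 12.4% of those with primed SOX2. BRM was present at 107 of the 169 (63.3%) and at 409 of the 1025 regions with primed SOX2 (39.9%), against the 30.0% of all common promoter regions. The odds ratio of BRM with primed SOX2 was 1.61 (1.41 to 1.83) at promoters and 0.954 (0.874 to 1.04) in common regions away from promoters. Peaks of BRM and of SOX2 in both states met in 81 regions, and 68 of these had all 4 BAF peaks as well. No BRM and no SOX2 peak was present in 9517 regions (65.6%).

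The highest primed SOX2 folds at named genes were at CDX2 (fold 35.7), a trophectoderm and gut regulator, and REST (35.7), then TCF7L1 (26.9), a repressor at the end of the WNT pathway, SMARCA2 (24.8), which encodes BRM itself, and CACHD1 (24.3), a calcium channel regulator gene. In naïve cells they were SMARCA2 (31.2), REST (28.2), MED12 (20.1), a Mediator kinase module gene, AFAP1 (18.9), an actin-binding protein gene, and WNT3 (17.6). SMARCA2 and REST were thus among the 5 highest in both states. The region at SMARCA2 (chromosome 9, 2014376 to 2019494) had folds of 3.31 and 3.48 for naïve and 3.29 and 3.87 for primed BRG1 and BAF155 and a BRM fold of 3.20, and its SOX2 summit holds the composite printed above. The region at REST (chromosome 4, 56906839 to 56909467) had folds of 4.27 and 3.83 for naïve and 3.84 and 5.09 for primed BRG1 and BAF155 and a BRM fold of 3.67. At CDX2 neither naïve SOX2 nor naïve BRM had a peak, and at CACHD1 naïve SOX2 had none.

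Of the 14 core pluripotency genes 6 had a common region (42.9%, interval 17.7 to 71.1%, which includes the 63.2% of all protein-coding genes). Each of the 6 held primed SOX2 there, against 6.78% of all genes with a common region. The list is small and was chosen with earlier results known. POU5F1 was marked over 5337 bp (chromosome 6, 31168367 to 31173703) by all 7 lists, with folds of 3.36 and 3.48 for naïve BRG1 and BAF155, 3.68 and 4.76 for the primed pair, 3.51 for BRM, and 10.4 and 19.2 for naïve and primed SOX2. NANOG had a pair of regions, of which the one at 7788740 to 7789453 on chromosome 12 held SOX2 in both states (10.8 naïve, 8.67 primed), and neither held BRM. LIN28A and LIN28B, which encode RNA-binding blockers of let-7 processing, were marked by SOX2 in primed cells (folds of 12.1 and 20.4) but not in naïve cells. At TDGF1, a NODAL coreceptor gene, naïve SOX2 (11.9) was higher than primed SOX2 (7.53) in the authors' fold values, which come from separate libraries.

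State markers fell on both sides. Of 14 naïve state genes in the annotation 7 had a common region (TFCP2L1, TFAP2C, KLF4, KLF5, TBX3, FGF4 and DPPA3), 5 had a naïve-only region in its place and 0 a primed-only one. KLF5 had 3 common regions, one of which held BRM (3.67) and naïve SOX2 (10.5) without primed SOX2, and another both naïve (7.06) and primed SOX2 (6.69). Of 15 primed state genes 10 had a common region (66.7%, interval 38.4 to 88.2%, which also includes 63.2%), 4 a primed-only one and 0 a naïve-only one. Among the 10, DUSP6 held SOX2 in both states (9.66 naïve, 10.2 primed), FGF2 (12.7), SALL1 (6.83) and SALL2 (5.28) held primed SOX2, and VIM, CDH2 and DNMT3B held naïve BRM. Among BAF subunit genes, primed SOX2 was present at SMARCA2, ARID2 (9.24) and BCL11A (8.47), and SMARCA4 held neither BRM nor SOX2. ACTL6B had the highest primed BAF155 fold of the list (7.22).

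Short motifs separated these promoters from the other classes. The GC box (GGGCGG), bound by SP and KLF factors, was present in 52.2% of the 200-bp windows, against 21.3% at state-specific promoters (naïve-only and primed-only pooled) (log2 odds ratio 2.01, 1.93 to 2.09) and 14.9% in common regions away from promoters (2.64). Within GC strata these log2 odds ratios were 0.53 (0.43 to 0.63) and 0.63. In the 300 bp at the starts of all protein-coding genes it was present in 61.3%, with 78.0% at genes with a common region and 32.7% at genes without. ETS sites (CCGGAAGT) were present in 1.91% against 1.04% at state-specific promoters and ZBTB33 sites (CTCGCGAG) in 0.648% against 0.190%, and both differences kept their direction and an interval that excludes equality within GC strata. The SOX core was less frequent (10.9% against 20.5% and, away from promoters, 26.2%), with log2 odds ratios of -1.07 and -1.54 that were -0.19 and -0.42 within GC strata. The KLF site GGGTGTGG was present in 1.92%, against 4.797% at naïve-only and 1.58% at primed-only promoters. The CCAAT box (15.2% against 19.7%) and the TATA box TATAAA (2.54% against 5.88%) were less frequent before and more frequent after stratification by GC content, with log2 odds ratios of 0.20 and 0.26. NRF1 sites (CGCATGCG) and CRE sites (TGACGTCA) were more frequent before stratification, and within GC strata their intervals included equality. ZNF143 sites (ACTACAATT) were in 9 windows, too few to compare. E-boxes (CACGTG, 4.01%) and ZIC sites (CCTGCTG, 7.75%) were present in 3.68% and 9.78% at state-specific promoters.

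Within the common promoter regions, motif content also differed with BRM. ETS sites were present in 1.15% of regions with BRM and 2.24% without (odds ratio 0.508, 0.374 to 0.692), YY1 sites (AAGATGGC) in 1.03% and 1.80% (0.570, 0.410 to 0.791), and ZBTB33 sites in 0.391% and 0.759% (0.513, 0.303 to 0.869). KLF sites had the opposite direction, with 2.51% and 1.67% (1.52, 1.19 to 1.94). The GC box (53.4% and 51.8%) and the SOX core (11.04% and 10.8%) differed by less than their intervals. Regions with BRM were wider (median 1755 against 1290 bp), and their midpoints lay farther from the start (median 172 against 130 bp). The part of width, position and GC content in these motif differences was not tested.

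Primed BRM marked 20 of the regions (0.138%), and 10 common regions away from promoters. The list gives positions only, so no fold can be shown. Of the 20, 5 had their nearest start at a gene of a small non-coding RNA made by RNA polymerase III. The share of such genes over all 14497 regions was not counted. The nearest start was annotated as snRNA, the type of RN7SK, in 0.269% of all regions. It was annotated as misc_RNA, the type of RN7SL1 and RN7SL2, in 0.179%. These types cover other genes as well, and RPPH1 and RMRP are annotated as ribozyme, for which no share is given. Neither share is therefore the background for the 5, which are a description. The 5 were RPPH1, the RNA of RNase P (chromosome 14, 20342173 to 20343881), RN7SL1 and RN7SL2, the RNAs of the signal recognition particle, RN7SK, which holds the elongation factor P-TEFb, and RMRP, the RNA of RNase MRP (chromosome 9, 35657440 to 35658818). Some of these genes, such as RN7SL1 and RN7SL2, have near-identical copies elsewhere in the genome. Read placement at these regions was not tested. Other regions with primed BRM were at SRC, PCGF2, ZBTB20, ARF6, NOL4L, PEMT, GPR137B, OSBPL11, B3GNTL1 and POLR2J3. A pair lay on the short arm of chromosome 21 at 8234374 to 8234635 and 8420151 to 8420467, with BAF folds under 2. Naïve BRM was present at 9 of the 20, against 30.0% of all common promoter regions.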

How the data were processed

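ChIP-seq of BRG1, BAF155, BRM and SOX2 was measured in naïve and primed WIBR3 hESCs. Per the study's methods and the labels, the authors aligned reads to hg38 with Bowtie2 (2.3.4), handled alignments with SAMtools (0.1.19) and called peaks against input with MACS2, as broad peaks for BAF subunits and narrow peaks for SOX2. The deposited lists give each peak's fold over input (a ratio) and its −log10 q-value, as the authors' peak caller wrote them, except primed BRM, which gives positions. Whether runs were pooled before peak calling is not given in the sources used here. The caller's threshold sets which peaks exist, so a missing peak is not a measured 0.

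Lists on chromosomes 1 to 22 and X were joined as described above with GENCODE release 44. The 95% intervals are exact (Clopper-Pearson) for shares and Woolf's for odds ratios. With 1 library per group, and regions not being replicates, no p-value was computed. Width and GC content were stratified by Mantel-Haenszel odds ratios. Motifs were searched on both strands in 200 bp at the midpoint, or in 250 bp before to 50 bp after gene starts, and matches may overlap. Named regions were the 10 highest by the lowest of the 4 BAF folds, the 5 highest by BRM and by each SOX2 fold, those at pluripotency, state and BAF subunit genes, those with primed BRM, those beside the distance limit and the 3 widest. Regions on some chromosomes are not named. Members, lists and rules were chosen with earlier results of these data known, and the RE1 search and width strata were added after seeing the data. Scripts ran in Python 3.11.15 with pandas 2.3.3, numpy 2.4.6, scipy 1.17.1 and pysam 0.24.0, with bedtools 2.31.1, and were tested on simulated data.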

Additional observations from a re-analysis of the deposited data

How the results depend on the processing

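No paired analysis was possible because each BAF group has 1 library and the SOX2 lists of a state have identical coordinates, so no library could be left out either. The number of common promoter regions was 14497, and it was 9110 with an overlap of 50% of both regions, 4089 with a −log10 q of at least 3, 451 with a fold of at least 4 and 6184 from BRG1 alone. Genes with such a region were 12612, and 8491, 3805, 402 and 5779 under the same settings in the same order. As log2 odds ratios, naïve BRM against regions away from promoters was -0.28 and turned to 0.73 with a fold of at least 4, and against naïve-only promoters it was 1.37, 0.73 with regions set to 500 bp and 0.067 within width strata. Naïve SOX2 against naïve-only promoters was 0.82. It was 0.15 with 50% of both, 0.58 with a fold of at least 4, 0.41 with midpoints within 500 bp, 0.017 with regions set to 500 bp and -0.63 within width strata. Within GC strata the direction turned for CCAAT (0.20 against state-specific promoters, 0.40 against regions away from promoters), TATA (0.26 and 0.29), ZNF143 (0.21 and 0.23) and, against state-specific promoters, E-box (-0.19). Beyond the width and GC strata, the cause of these shifts was not tested. Of 100 alternative values for the counts and for BRM and SOX2, 86 were rated the same, as were 41 of 55 for motifs. For odds ratios this meant the same direction and the same side of the threshold. Counts have no direction and were rated the same when they stayed within a set ratio of the reported count. RE1 against naïve-only promoters was -0.81, and -0.24 with at most 1 mismatch. A missing peak is not a measured absence, above all in the short primed BRG1, primed BRM and naïve SOX2 lists.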
